A study of Homo sapiens with 24 samples.

Results

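The genes described are 10 genes of the actin cytoskeleton and of its transcription factor SRF: ACTB, ACTG1, MYL9, TAGLN, TAGLN2, TPM1, TPM2, VCL, FLNA and SRF. They were chosen by symbol, and all 10 were found among the 26450 genes of the deposited table. They were followed across 8 groups of 3 RNA sequencing libraries, 24 in all. PANC-1 is a human epithelial line from a carcinoma of the pancreatic duct, and HEK293T derives from human embryonic kidney. Both lines were cultured in 4 formats: flat (2D), aggregated in AggreWell microwells, and as spheroids in DRCC, capillary containers that rotate about 2 axes, with the speed set to 1 rpm or to 30 rpm. No other treatment, culture time or genotype is given by the labels, and each line stands for 1 cell type in culture.

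Actin exists in cells as monomers and as filaments. Beta-actin (ACTB) and gamma-actin (ACTG1) are the cytoplasmic forms, and tropomyosins, myosin light chains, transgelins, filamins and vinculin bind the filaments or tie them to sites of adhesion. SRF is a DNA-binding protein that works with partner proteins. One family of partners, the myocardin-related factors MRTFA and MRTFB, binds actin monomers and moves into the nucleus when monomers are used up by filaments. SRF then activates many genes of the cytoskeleton, its own gene included. Another family, the ternary complex factors, brings SRF to immediate early genes such as FOS and EGR1. In epithelial lines this pathway is known for its response to spreading, attachment and tension.

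SRF binds the CArG box, and the promoters of the members that hold one are shown because they are where these genes could meet the factor. RefSeq promoters of GRCh38.p14, each 300 bases long with 250 before and 50 after a start site, were matched for 7 of the 10 genes, in 11 windows. A CArG box was searched for on both strands and was found in 3 of the 7 genes, SRF, ACTG1 and FLNA, where 1.6% of all 27305 RefSeq genes had one. By window it was 3 of 11, where 1.29% of all 35116 windows of this length held one. The stretches lie at chr6:43171189-43171268 on the plus strand for SRF, at chr17:81512834-81512943 on the minus strand for ACTG1 and at chrX:154374669-154374778 on the minus strand for FLNA. They are written 5′ to 3′, with the CArG box in capitals.
SRF: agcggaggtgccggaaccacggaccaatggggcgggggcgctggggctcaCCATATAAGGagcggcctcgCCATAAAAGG
ACTG1: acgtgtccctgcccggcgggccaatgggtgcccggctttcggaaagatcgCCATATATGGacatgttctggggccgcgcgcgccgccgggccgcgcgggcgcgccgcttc
FLNA: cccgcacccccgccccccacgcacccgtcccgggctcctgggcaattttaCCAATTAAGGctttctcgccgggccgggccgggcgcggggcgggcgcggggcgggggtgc
The SRF promoter held 2 boxes, at positions -30 to -21 and -10 to -1 from the start site. The single boxes of ACTG1 and FLNA both lay at -94 to -85. No box was found in the windows matched for TAGLN2, TPM1, TPM2 and VCL, which says only that the letters are not in these windows.

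Values are FPKM, fragment counts set relative to transcript length and library depth, so that levels can be set side by side across genes. Library totals recovered from the values ran from 32555400 to 39556168 fragments. Changes are differences in log2(FPKM + 1) ± SE from limma fits of 3 libraries against 3, which understates the change of low genes, and a gene is called changed at a Benjamini-Hochberg adjusted p under 0.05 over all tested genes. A gene was tested where at least 3 libraries reached 1 FPKM: 9 of the 10 genes in PANC-1 (not TAGLN) and 8 in HEK293T (not TAGLN or MYL9). Nothing in the labels says that the 3 libraries of a group came from separate cultures, so the p-values measure the spread between libraries, which may be technical. The median change of all tested genes from 2D was above 0: 0.10 in AggreWell, 0.15 at 1 rpm and 0.17 at 30 rpm in PANC-1, and 0.12, 0.18 and 0.13 in HEK293T. Another scaling, by the median ratio of each library, set the share of higher calls among all calls at 40.2%, 46.7% and 47.5% in PANC-1, where the FPKM gave 65.6%, 60.7% and 62.5%, and at 42.0%, 45.3% and 46.5% in HEK293T, where the FPKM gave 64.5%, 62.6% and 58.3%. Mitochondrially encoded genes took 4.10% to 4.68% of fragments in PANC-1 2D and 1.57% to 1.62% at 30 rpm, and between 3.33% and 4.85% in all HEK293T libraries. Rescaling each library without those genes left 135 of 138 member results with the same sign on the same side of the threshold. In bulk RNA, fewer cells of a kind and less RNA per cell cannot be told apart.

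The labelled lines were checked against marker lists. All 8 PANC-1 markers reached a mean of 1 FPKM in PANC-1 2D against 3 of 8 in HEK293T 2D, with summed levels of 2250 to 2350 FPKM against 16.5 to 21.1 FPKM. Of 7 HEK293T markers, 6 reached it in HEK293T 2D and 5 in PANC-1 2D, with summed levels of 1160 to 1260 FPKM against 137 to 141 FPKM. The sums of both lists moved with the format. In PANC-1, 8, 7 and 6 of its 8 markers reached 1 FPKM in AggreWell, at 1 rpm and at 30 rpm, with sums of 2150 to 2170, 2460 to 2490 and 2600 to 2720 FPKM. In HEK293T the 7 markers of that line summed to 1080 to 1110, 573 to 584 and 589 to 609 FPKM in these formats, and the PANC-1 list summed to 28.4 to 31.6, 45.1 to 51.7 and 58.6 to 65.7 FPKM. Most of the HEK293T sum was CKB, at 1110 FPKM in 2D and 986, 461 and 480 in these formats. LIN28B of the same list rose, from 14.9 FPKM in 2D to 31.9 at 1 rpm and 32.0 at 30 rpm. Of the PANC-1 list in HEK293T, ANXA1 went from 1.43 FPKM in 2D to 31.1 at 30 rpm, and LGALS1 from 14.6 to 28.6. The part of these shifts in the changes of the member genes was not tested. KRT19, a keratin of duct epithelium, was low in PANC-1, with 1.98 FPKM in 2D and 0.79 FPKM at 30 rpm. Since several member genes are known from smooth muscle, smooth muscle and myofibroblast markers were read too. Only SMTN (smoothelin) of these 7 markers reached a mean of 1 FPKM in any group. The list summed to between 6.17 and 11 FPKM over all libraries, and MYH11 (smooth muscle myosin heavy chain) had a mean of at most 0.0395 FPKM in every group. Of 10 fibroblast, endothelial and blood cell markers, 2 reached a mean of 1 FPKM in each group.

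In PANC-1 all 9 tested members were called lower at DRCC 1 rpm than in 2D, beside 33.9% of all tested genes. In AggreWell and at 30 rpm 8 of 9 were called lower, beside 24.1% and 32.2%. ACTB, TPM1, MYL9 and VCL stood at 0.463 to 0.526 times their 2D mean FPKM at 1 rpm, whereas ACTG1 stood at 0.912 times. The 10 genes did not move as one in HEK293T: ACTB fell to 0.347 and 0.298 times its 2D mean at the 2 speeds, and TPM2, at a low level, more than doubled. Levels in every library are shown in the plot of FPKM by format.

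**Figure D1:**
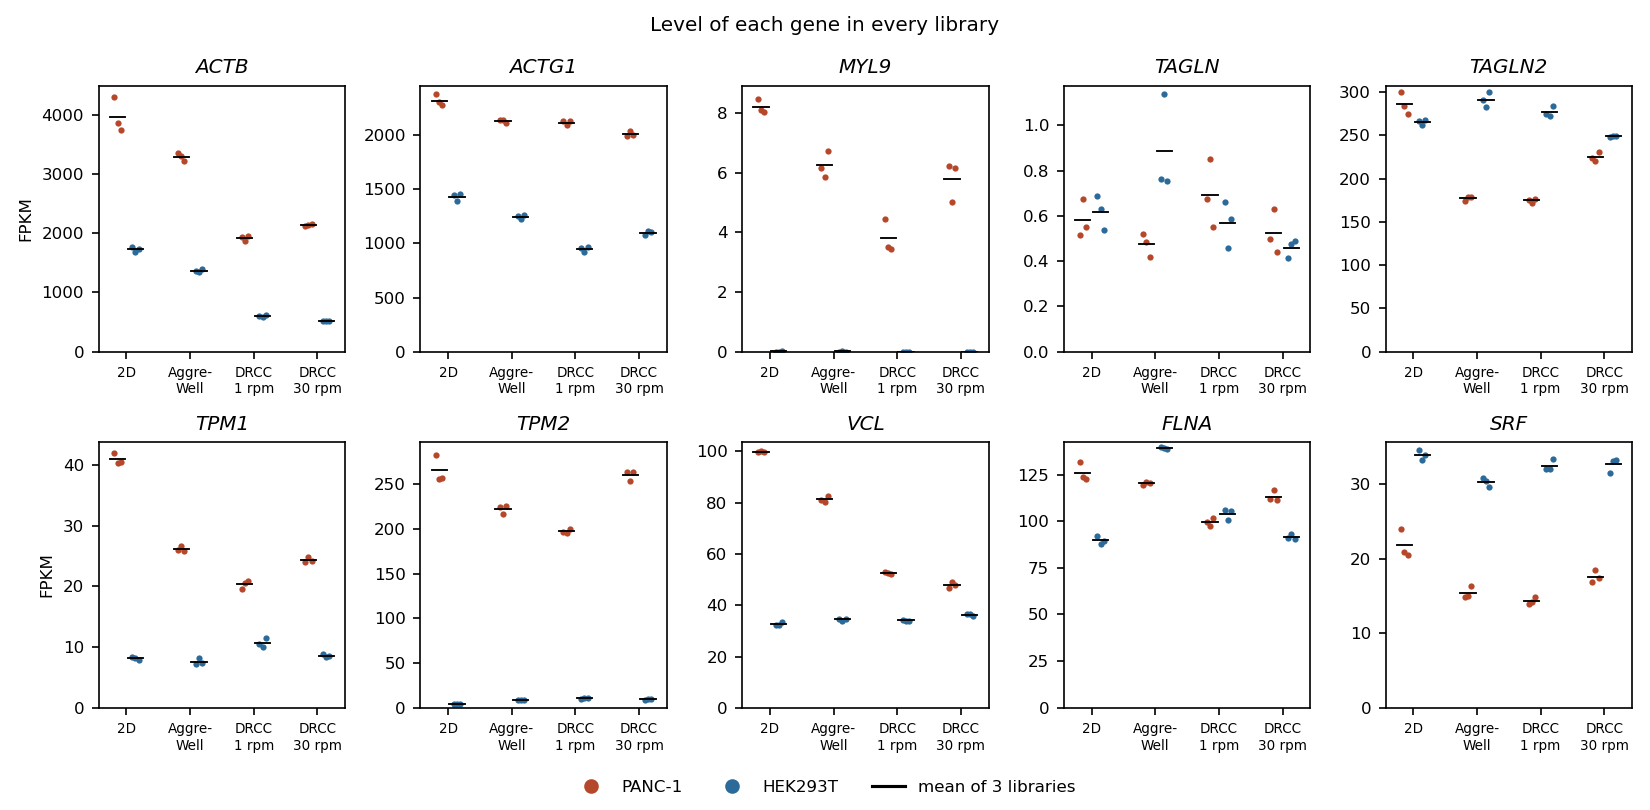
FPKM (vertical axes, linear from 0, a separate scale per gene) of the 10 genes in all 24 libraries, by culture format, with PANC-1 in red, HEK293T in blue and a black bar at the mean of the 3 libraries of a group. ACTB steps down from 2D to DRCC in both lines, and MYL9 and TPM2 lie far lower in HEK293T than in PANC-1.

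SRF itself was described first, as the regulator. In PANC-1 its levels were 23.9, 20.9 and 20.4 FPKM in 2D, 14.9, 14.9 and 16.3 in AggreWell, 13.9, 14.2 and 14.9 at 1 rpm, and 16.9, 18.4 and 17.5 at 30 rpm. The 2D libraries were the highest, and no library of another format reached them. SRF fell by 0.47 ± 0.06 in AggreWell, by 0.57 ± 0.06 at 1 rpm and by 0.29 ± 0.06 at 30 rpm on the log2 scale (limma, adjusted p = 5.1e-06, 3e-07 and 0.00024, n = 3 per format). It was higher at 30 rpm than at 1 rpm, by 0.28 ± 0.06 (limma, adjusted p = 0.00057).
In HEK293T the SRF level was higher than in any PANC-1 library and moved little. It was 34.6, 33.2 and 33.9 FPKM in 2D, 30.8, 30.4 and 29.6 in AggreWell, 32.0, 32.0 and 33.4 at 1 rpm, and 31.5, 33.1 and 33.3 at 30 rpm. The AggreWell libraries lay below all others, while those of both DRCC speeds overlapped with 2D. The fall in AggreWell of 0.16 ± 0.03 was called (limma, adjusted p = 0.00044). The changes of -0.06 ± 0.03 at 1 rpm and -0.05 ± 0.03 at 30 rpm were not called on the FPKM scale (adjusted p = 0.082 and 0.12), but both were called lower under median-ratio scaling, at -0.35 and -0.26. From high to low, the order of the 4 PANC-1 formats was 2D, 30 rpm, AggreWell and 1 rpm, with no overlap between neighbours. In HEK293T, 2D, 30 rpm and 1 rpm overlapped with each other.

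The cytoplasmic actins were the most abundant of the 10 genes. ACTB in PANC-1 stood at 4303, 3860 and 3740 FPKM in 2D, at 3356, 3307 and 3217 in AggreWell, at 1942, 1869 and 1952 at 1 rpm, and at 2125, 2149 and 2150 at 30 rpm. In HEK293T the levels were 1773, 1677 and 1739 FPKM in 2D, 1356, 1346 and 1391 in AggreWell, 605, 579.7 and 614 at 1 rpm, and 511, 521 and 515 at 30 rpm. No 2 of the 8 groups overlapped, and the highest HEK293T library lay under the lowest of PANC-1.
ACTB fell in both lines and in each format. In PANC-1 the fall was 0.27 ± 0.04 in AggreWell, 1.04 ± 0.04 at 1 rpm and 0.89 ± 0.04 at 30 rpm on the log2 scale (limma, adjusted p = 8.3e-05, 2.5e-11 and 1.5e-10). In HEK293T it fell by 0.34 ± 0.03, by 1.53 ± 0.03 and by 1.74 ± 0.03 in the same order (limma, adjusted p = 6.3e-08, 3.4e-14 and 7.5e-15). At 30 rpm in HEK293T only 0.22% of the 12548 tested genes had a lower change than ACTB, against 4.51% of 11585 in PANC-1. From 1 rpm to 30 rpm, ACTB changed by 0.16 ± 0.04 in PANC-1 and by -0.22 ± 0.03 in HEK293T (limma, adjusted p = 0.005 and 2.1e-05).

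ACTG1 encodes the other cytoplasmic actin, and its change was smaller. In PANC-1 it stood at 2383, 2304 and 2276 FPKM in 2D, 2144, 2140 and 2118 in AggreWell, 2128, 2091 and 2133 at 1 rpm, and 1997, 2043 and 2000.0 at 30 rpm. AggreWell and 1 rpm overlapped, and all 3 formats lay under 2D, with changes of -0.12 ± 0.02, -0.13 ± 0.02 and -0.20 ± 0.02 (limma, adjusted p = 0.00061, 0.00018 and 2.6e-06). In HEK293T it stood at 1448, 1390 and 1460.0 FPKM in 2D, 1256, 1228 and 1259 in AggreWell, 960.4, 924 and 968 at 1 rpm, and 1079, 1116 and 1105 at 30 rpm. The HEK293T formats did not overlap, and ACTG1 was lowest at 1 rpm: the changes from 2D were -0.20 ± 0.02, -0.59 ± 0.02 and -0.38 ± 0.02 (limma, adjusted p = 6.7e-06, 7.3e-11 and 5.6e-09). ACTB and ACTG1 are near-identical in their coding parts and have many processed copies in the genome, so reads could be divided between them by the counting.

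The unequal fall of the actins changed their ratio, a measure chosen after the values were seen. In PANC-1 the ACTB to ACTG1 ratio of FPKM was 1.71 ± 0.09 (SD, n = 3) in 2D, 1.54 ± 0.02 in AggreWell, 0.907 ± 0.011 at 1 rpm and 1.06 ± 0.01 at 30 rpm. In HEK293T it was 1.21 ± 0.02, 1.09 ± 0.01, 0.630 ± 0.003 and 0.469 ± 0.004. Each format lay under 2D of its line in 3 of 3 libraries. An exact two-sided permutation test of 3 against 3 libraries gave p = 0.1 for each of the 6 contrasts, the smallest value that this design allows. Gamma-actin thus had the higher FPKM of the pair at 1 rpm in both lines, and at 30 rpm in HEK293T alone. Together both genes took 1.19% ± 0.07 of all fragments in PANC-1 2D, 1.03% ± 0.02 in AggreWell, 0.780% ± 0.013 at 1 rpm and 0.798% ± 0.007 at 30 rpm. In HEK293T the shares were 0.605% ± 0.016, 0.501% ± 0.007, 0.302% ± 0.008 and 0.318% ± 0.005.

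**Figure D2:**
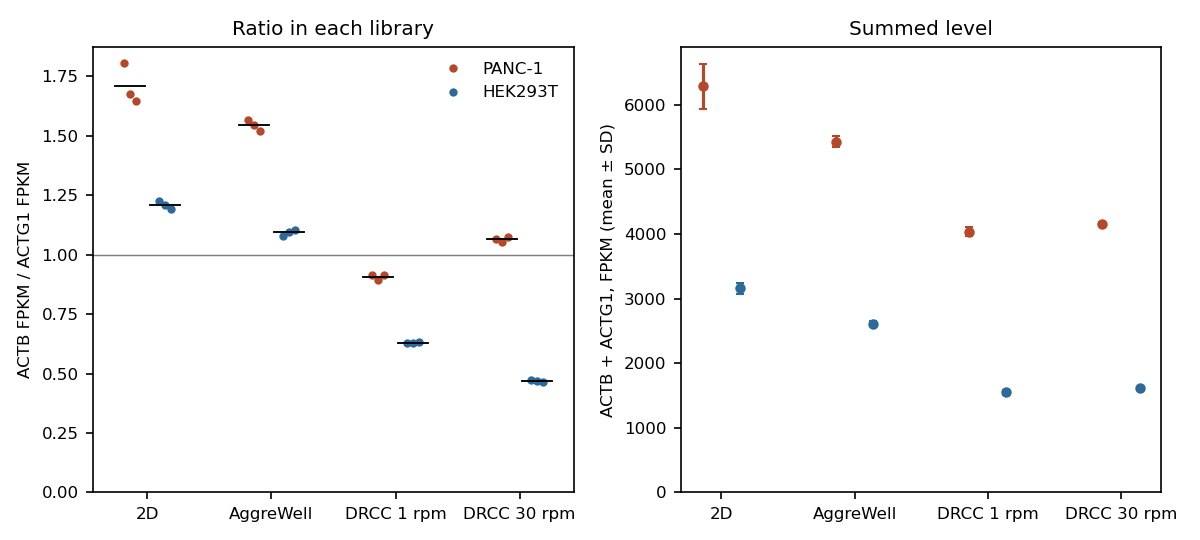
Left, ACTB FPKM divided by ACTG1 FPKM in each library by culture format, with black bars at group means and a grey line at equal levels; right, the summed FPKM of both genes as mean ± SD of 3 libraries, with PANC-1 in red and HEK293T in blue. Ratios fall from 1.71 to 0.907 and 1.06 in PANC-1 and from 1.21 to 0.630 and 0.469 in HEK293T for the 2 DRCC speeds.

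Tropomyosins wind along actin filaments and set which other proteins can bind them. TPM1 in PANC-1 was at 42.0, 40.3 and 40.4 FPKM in 2D, 25.9, 26.6 and 25.9 in AggreWell, 19.5, 20.6 and 20.9 at 1 rpm, and 24, 24.9 and 24.1 at 30 rpm. The 4 formats did not overlap. Its changes from 2D were -0.63 ± 0.03, -0.97 ± 0.03 and -0.73 ± 0.03 (limma, adjusted p = 9.8e-10, 1.9e-12 and 3.9e-11).
In HEK293T, TPM1 was at 8.32, 8.19 and 7.94 FPKM in 2D, 7.25, 8.19 and 7.33 in AggreWell, 10.6, 10.1 and 11.4 at 1 rpm, and 8.93, 8.34 and 8.45 at 30 rpm. The 1 rpm libraries were the highest. Its change at 1 rpm was 0.35 ± 0.05 (limma, adjusted p = 3e-05), but 0.08 and not called under median-ratio scaling. The changes of -0.09 ± 0.05 in AggreWell and 0.07 ± 0.05 at 30 rpm were not called (adjusted p = 0.13 and 0.25), and the latter had the opposite sign under median-ratio scaling (-0.12) and voom (-0.07).

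TPM2 set the lines apart more than any other tested member with a measurable level in both. In PANC-1 it was at 283, 256 and 257 FPKM in 2D, 224, 217 and 225 in AggreWell, 196.5, 195 and 200.4 at 1 rpm, and 264, 253.5 and 264 at 30 rpm. In HEK293T it was at 4.01, 3.82 and 4.07 FPKM in 2D, 8.78, 8.65 and 8.51 in AggreWell, 10.4, 10.5 and 11 at 1 rpm, and 9.13, 9.53 and 9.41 at 30 rpm. In PANC-1 the 30 rpm libraries overlapped with 2D, whereas in HEK293T the 2D libraries were the lowest, with no overlap. The PANC-1 changes were -0.25 ± 0.04 in AggreWell, -0.42 ± 0.04 at 1 rpm and -0.03 ± 0.04 at 30 rpm (limma, adjusted p = 2.2e-05, 4.9e-08 and 0.49). In HEK293T TPM2 rose by 0.96 ± 0.04, 1.23 ± 0.04 and 1.06 ± 0.04 (limma, adjusted p = 9e-11, 3e-12 and 9.6e-12), and its mean FPKM was 2.18, 2.68 and 2.36 times that of 2D. Without PANC-1 2D replicate 1, the highest 2D library, the PANC-1 change at 30 rpm was 0.02, and under median-ratio scaling it was -0.27 and called.

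MYL9, a regulatory light chain of myosin II, was measured in PANC-1 only. It stood at 8.48, 8.09 and 8.04 FPKM in 2D, 6.15, 5.85 and 6.74 in AggreWell, 4.44, 3.50 and 3.45 at 1 rpm, and 6.22, 5.01 and 6.15 at 30 rpm. AggreWell and 30 rpm overlapped, with 2D above and 1 rpm below both. Its changes from 2D were -0.35 ± 0.08, -0.95 ± 0.08 and -0.44 ± 0.08 (limma, adjusted p = 0.0021, 9.6e-08 and 0.0002), and it was higher at 30 rpm than at 1 rpm by 0.50 ± 0.08 (limma, adjusted p = 0.00012). The 12 HEK293T libraries held 0, 1 or 2 fragments of MYL9 each, and the 6 DRCC libraries held 0. A count of 0 over the 3 libraries of a group allows a level of up to 0.01 FPKM at 1 rpm and 0.0109 FPKM at 30 rpm (3 fragments per group, for counting error only).

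The transgelins bind along actin filaments. TAGLN, known as a smooth muscle marker, was listed at 0.414 to 1.14 FPKM in the 24 libraries, on 58 to 185 fragments per library. Each of its groups overlapped with the next in the order of means of both lines, from HEK293T AggreWell at 0.885 ± 0.219 FPKM (SD, n = 3) to HEK293T 30 rpm at 0.460 ± 0.041 FPKM. Within a line some formats were apart. In HEK293T the AggreWell libraries, at 0.753 FPKM or more, lay above all others, which reached 0.688 in 2D. Those at 30 rpm, up to 0.490, lay below 2D, at 0.536 or more. In PANC-1 the 1 rpm libraries, at 0.551 or more, lay above AggreWell, at up to 0.522. It was not tested in the main fits, since it did not pass the filter on low values. Without that filter it was called higher in PANC-1 at 1 rpm against AggreWell. Its line difference in AggreWell against 2D was then called lower. Against AggreWell in HEK293T, 5 of 10 members were called lower without the filter at 1 rpm and at 30 rpm. The main fits had 4 of 8, and 21.1% and 25.1% of all genes were lower without the filter. In HEK293T AggreWell against 2D, 5 of 10 members were called higher without the filter, beside 30.9% of all genes. The main fits had 4 of 8. MYL9 held 0, 0 and 1 fragments in the HEK293T 2D libraries, 0, 2 and 0 in AggreWell and 0 in DRCC. The member added in each of these HEK293T comparisons was thus TAGLN.
TAGLN2, the paralogue found outside muscle, was abundant in both lines. In PANC-1 it was at 300.5, 284 and 275 FPKM in 2D, 174, 178.5 and 179 in AggreWell, 175, 172 and 177 at 1 rpm, and 223, 220.1 and 230.1 at 30 rpm. AggreWell and 1 rpm overlapped, and both lay below 30 rpm, which lay below 2D. The changes were -0.69 ± 0.03, -0.71 ± 0.03 and -0.35 ± 0.03 (limma, adjusted p = 4.6e-10, 5.3e-11 and 1.1e-07). In AggreWell only 0.88% of the tested genes had a lower change than TAGLN2.
In HEK293T, TAGLN2 was at 267, 262 and 268 FPKM in 2D, 290.2, 282 and 300 in AggreWell, 275, 272 and 284 at 1 rpm, and 248, 249 and 249 at 30 rpm. AggreWell and 1 rpm overlapped above 2D, and 30 rpm lay below it. Its changes of 0.13 ± 0.02 in AggreWell and 0.06 ± 0.02 at 1 rpm were called higher on the FPKM scale (limma, adjusted p = 0.00032 and 0.035), but they turned to -0.10 and -0.24 under median-ratio scaling and to -0.003 and -0.12 with voom. At 30 rpm the change was -0.09 ± 0.02 (limma, adjusted p = 0.0032).

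VCL encodes vinculin, which links actin filaments to integrin and cadherin adhesions. In PANC-1 it was at 99.8, 100.2 and 99.8 FPKM in 2D, 81.0, 80.1 and 82.7 in AggreWell, 52.8, 52.6 and 52.4 at 1 rpm, and 46.6, 49.1 and 48.0 at 30 rpm. The order ran from 2D through AggreWell and 1 rpm to 30 rpm with no overlap. The changes were -0.29 ± 0.02, -0.91 ± 0.02 and -1.05 ± 0.02 (limma, adjusted p = 1.2e-07, 2.8e-13 and 8.2e-14). VCL and ACTG1 were the tested members that were lower at 30 rpm than at 1 rpm in PANC-1, with changes of -0.13 ± 0.02 and -0.07 ± 0.02 (limma, adjusted p = 0.00022 and 0.018). Without the filter only 1 member was called lower there. ACTG1 lost its call in 3 of the 6 fits that each left out 1 library.
In HEK293T, VCL kept within 32.3 to 36.7 FPKM: 32.3, 32.4 and 33.5 in 2D, 34.8, 34.1 and 34.6 in AggreWell, 34.4, 34.0 and 33.9 at 1 rpm, and 36.7, 36.7 and 35.8 at 30 rpm. Each 3D format lay above 2D by a small margin. The changes of 0.07 ± 0.03, 0.06 ± 0.03 and 0.15 ± 0.03 (limma, adjusted p = 0.02, 0.051 and 0.00011) turned to -0.15, -0.23 and -0.06 under median-ratio scaling.

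FLNA encodes filamin A, which crosslinks actin filaments into networks. In PANC-1 it was at 132, 124 and 122 FPKM in 2D, 119.5, 121 and 120.3 in AggreWell, 99.6, 97.7 and 102 at 1 rpm, and 112, 116.5 and 111.5 at 30 rpm. No formats overlapped, and the spread within 2D was the widest. Its changes were -0.07 ± 0.03 in AggreWell (limma, adjusted p = 0.06), -0.33 ± 0.03 at 1 rpm and -0.15 ± 0.03 at 30 rpm (limma, adjusted p = 1.1e-07 and 0.00027). In HEK293T it was at 92.1, 87.9 and 89.4 FPKM in 2D, 139.7, 139 and 139 in AggreWell, 106, 101 and 106 at 1 rpm, and 90.8, 93.0 and 90.6 at 30 rpm. AggreWell gave the highest FLNA level of all 8 groups, 1.55 times that of HEK293T 2D. That rise of 0.63 ± 0.03 was called (limma, adjusted p = 2.1e-10) and kept its direction under each scaling. The change at 1 rpm, 0.21 ± 0.03 (limma, adjusted p = 4.6e-06), became -0.08 under median-ratio scaling. The change of 0.03 ± 0.03 at 30 rpm was not called (adjusted p = 0.34) and became -0.18 and, with voom, -0.12.

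Counted over the tested members, the fall in PANC-1 was set beside all genes. In AggreWell 8 of 9 members were called lower against 24.1% of all tested genes, and 0 were called higher against 45.9%. At 1 rpm 9 of 9 were called lower against 33.9%, and 0 higher against 52.3%. At 30 rpm 8 of 9 were called lower against 32.2%, and 0 higher against 53.6%. With limma at an unadjusted p under 0.05, and also with voom and under median-ratio scaling, 0 members were higher in any of the 3 formats. The median change of the members was -0.29, -0.71 and -0.35, beside the all-gene medians of 0.10, 0.15 and 0.17. A fall of at least 2-fold on the log2(FPKM + 1) scale was seen for ACTB at 1 rpm, where 3.72% of genes had one, and for VCL at 30 rpm, where 3.26% had one.

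In HEK293T the members were divided. In AggreWell 4 of 8 were called higher (TPM2, FLNA, and TAGLN2 and VCL, which turned lower under median-ratio scaling) against 48.6% of all genes, and 3 lower (ACTB, ACTG1 and SRF) against 26.8%. At 1 rpm 4 were called higher (TPM1, TPM2, and TAGLN2 and FLNA, which turned lower under median-ratio scaling) against 53.1%, and 2 lower (ACTB and ACTG1) against 31.7%. At 30 rpm 2 were called higher (TPM2, and VCL, which turned lower under median-ratio scaling) against 49.6%, and 3 lower (ACTB, ACTG1 and TAGLN2) against 35.5%. Under median-ratio scaling 2, 1 and 1 members were higher and 6 were lower in each format, so that only the falls of ACTB and ACTG1, the rise of TPM2, the rise of FLNA in AggreWell, and the falls of SRF in AggreWell and TAGLN2 at 30 rpm were called with the same sign under both scalings. A count of 4 of 8 beside 48.6%, or of 3 of 8 beside 35.5%, is near the background and is no result about the members. The members' median change was -0.01, 0.06 and -0.01, beside all-gene medians of 0.12, 0.18 and 0.13. ACTB fell at least 2-fold at 1 rpm, as 2.67% of genes did, and at 30 rpm, as 3.87% did. TPM2 rose at least 2-fold at both speeds, as 12.2% and 11.6% of genes did.

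**Figure D3:**
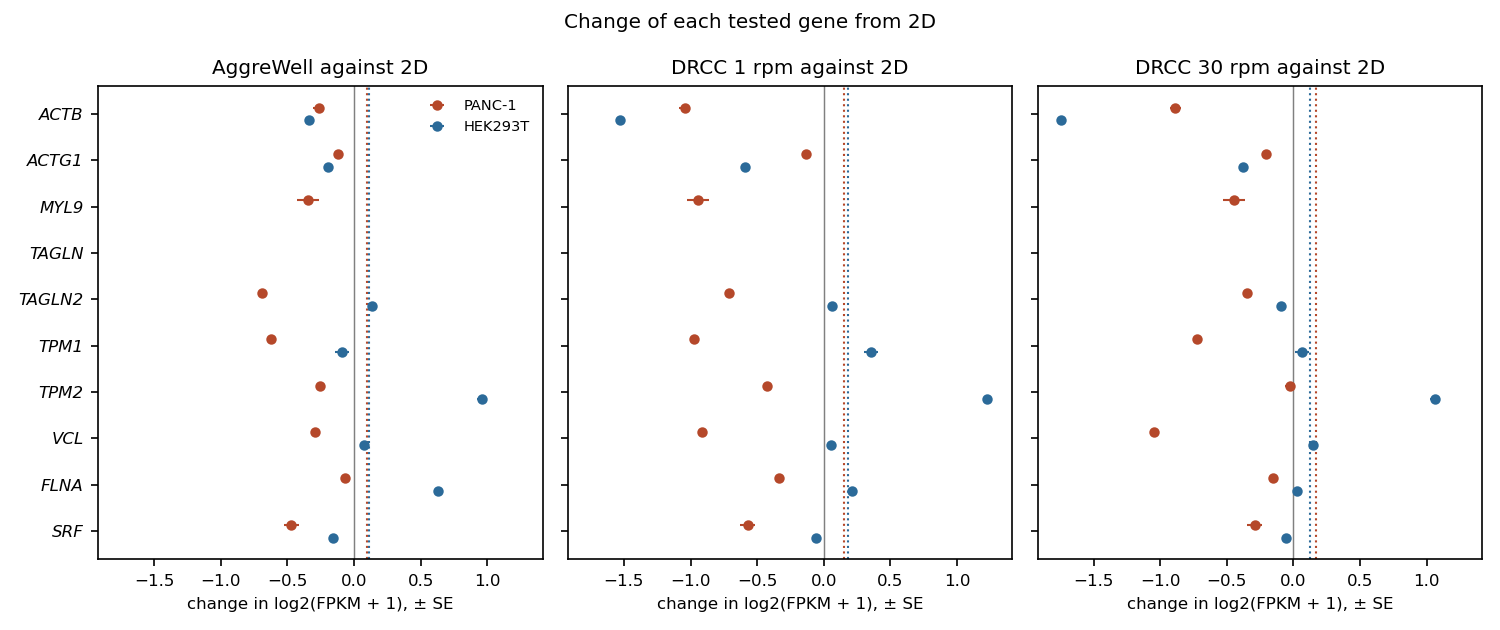
Change from 2D in log2(FPKM + 1) with its SE (horizontal axes) for each tested member (rows) in AggreWell, DRCC 1 rpm and DRCC 30 rpm, with PANC-1 in red and HEK293T in blue; dotted lines mark the median change of all tested genes of the line. All PANC-1 points lie left of 0, although FLNA in AggreWell and TPM2 at 30 rpm were not called, while HEK293T runs from -1.74 for ACTB to 1.23 for TPM2.

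Read relative to the all-gene median, the PANC-1 members at 1 rpm ran from -1.20 for ACTB to -0.28 for ACTG1. At 30 rpm they ran from -1.22 for VCL to -0.20 for TPM2. In HEK293T, ACTB stood at -1.71 and -1.87 relative to the median at the 2 speeds, TPM2 was above it by 1.04 and 0.93, and VCL was within 0.13 of it, at -0.13 and 0.02. The distribution of all changes shows where each gene lies.

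**Figure D4:**
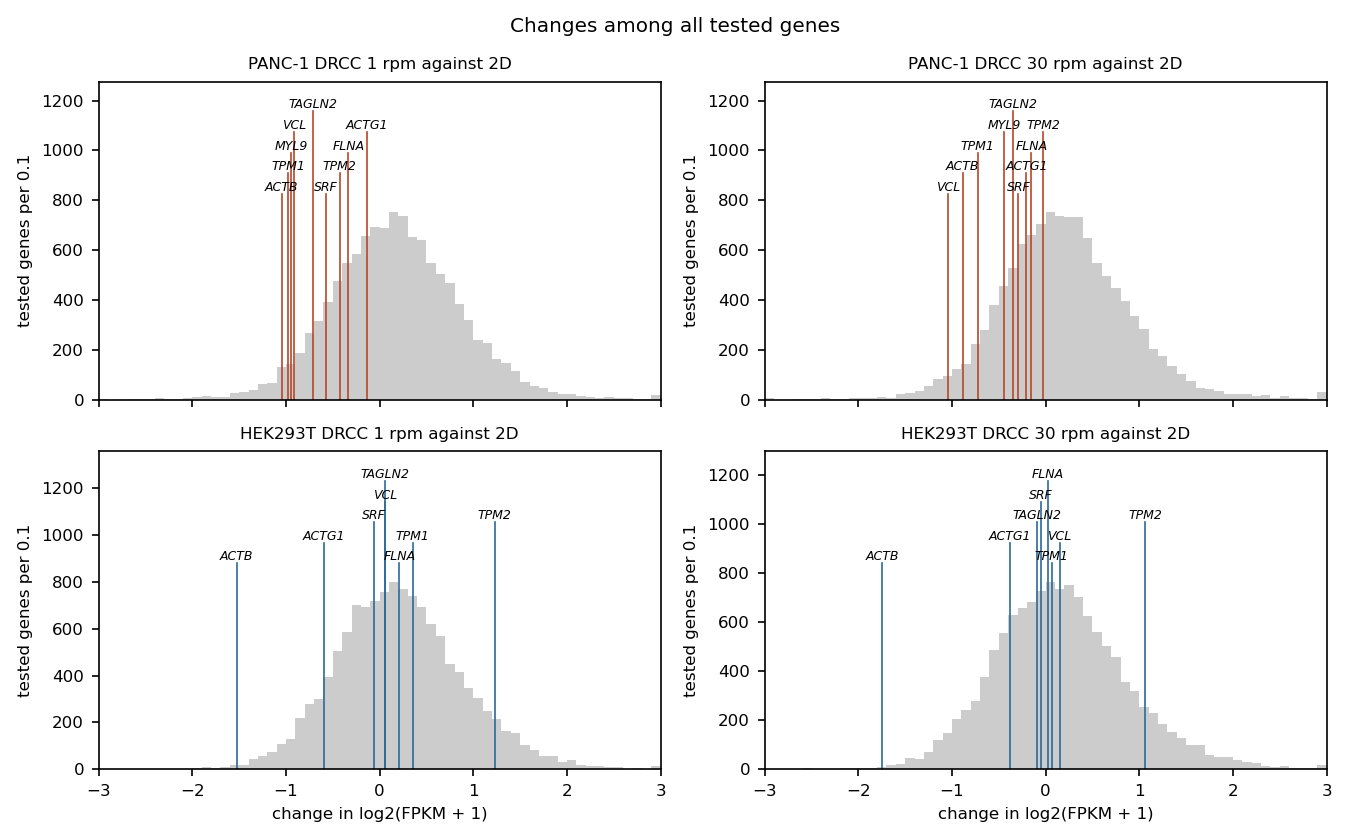
Number of tested genes per step of 0.1 (vertical axes) by change from 2D in log2(FPKM + 1) (horizontal axes, with changes beyond ±3 placed in the end bars) for the 2 DRCC speeds in each line; labelled vertical lines mark the tested members, and their heights are staggered for legibility only. The PANC-1 members lie left of the peak, and in HEK293T ACTB and TPM2 lie at opposite sides, at -1.53 and 1.23 at 1 rpm.

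The 3D formats were then compared with each other. In PANC-1, DRCC at 1 rpm against AggreWell gave 6 lower members (ACTB, MYL9, TPM1, TPM2, VCL and FLNA) against 38.4% of all genes and 0 higher against 43.7%. Of the 9 members that passed the filter, 0 were higher at an unadjusted p under 0.05 in limma or with voom. Without the filter TAGLN was called higher, as were 25.3% of all genes. ACTB and VCL led these, at -0.78 ± 0.04 and -0.62 ± 0.02 (limma, adjusted p = 9.2e-10 and 2.4e-11). At 30 rpm against AggreWell, 5 were lower (ACTB, ACTG1, TPM1, VCL and FLNA) against 37.8%, and 3 higher (TAGLN2, TPM2 and SRF) against 45.4%, of which SRF was not called under median-ratio scaling. At 30 rpm against 1 rpm, 7 were higher against 36.2% and 2 lower, VCL and ACTG1, against 31.9%. Without the filter 7 were higher against 18.8% and 1 lower against 17.4%. The largest rises at 30 rpm against 1 rpm were those of MYL9 (0.50 ± 0.08), TPM2 (0.40 ± 0.04) and TAGLN2 (0.36 ± 0.03), with limma adjusted p of 0.00012, 3.7e-07 and 3e-07.
In HEK293T, 1 rpm against AggreWell gave 4 lower members (ACTB, ACTG1, TAGLN2 and FLNA) against 33.8% and 3 higher (TPM1, TPM2 and SRF) against 41.8%. Under median-ratio scaling and with voom VCL was also lower and SRF was not called, which left 5 lower and 2 higher. ACTB had the largest fall, -1.19 ± 0.03, and FLNA the next, -0.42 ± 0.03 (limma, adjusted p = 8.5e-13 and 1.2e-08). At 30 rpm against AggreWell, 4 were lower (ACTB, ACTG1, TAGLN2 and FLNA) against 38.7% and 4 higher (TPM1, TPM2, VCL and SRF) against 39.9%. At 30 rpm against 1 rpm, 5 were lower (ACTB, TAGLN2, TPM1, TPM2 and FLNA) against 32.9% and 2 higher (ACTG1 and VCL) against 19.6%. Under median-ratio scaling 3 were lower (ACTB, TPM1 and FLNA) against 21.8% and 3 higher (ACTG1, VCL and SRF) against 31.1%. On the FPKM scale SRF was not called between the speeds in this line, with a change of 0.01 ± 0.03 (limma, adjusted p = 0.87) whose sign changed when single libraries were left out. Under median-ratio scaling its change was 0.09 and was called.

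The lines differed in 2D in all 9 members tested, where 90.7% of all genes did. Of these, 8 were higher in PANC-1 and 1, SRF, was higher in HEK293T. MYL9 passed the filter only through PANC-1 and so had to differ. TPM2 had a mean of 265.5 ± 15.2 FPKM (SD, n = 3) in PANC-1 2D and 3.97 ± 0.13 FPKM in HEK293T 2D, 66.9 times as much. TPM1 was 5.02 times, VCL 3.05 times, ACTB 2.29 times, ACTG1 1.62 times, FLNA 1.40 times and TAGLN2 1.08 times as high in PANC-1. SRF was at 0.642 times its HEK293T level, a difference of -0.62 ± 0.05 (limma, adjusted p = 4.3e-11). TAGLN2 had the smallest difference, 0.11 ± 0.03 (limma, adjusted p = 0.0013).

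The change from 2D was then compared between the lines as an interaction, the PANC-1 change less that of HEK293T. It was called for 8 of 9 members in AggreWell against 57.0% of all genes, for 9 of 9 at 1 rpm against 75.8%, and for 9 of 9 at 30 rpm against 79.5%. These counts hold MYL9, which passed the filter through PANC-1 alone and whose difference restates its PANC-1 change. With voom MYL9 was not called in any format, and the counts were 6, 8 and 8. ACTB was the member not called in AggreWell, at 0.08 ± 0.05 (limma, adjusted p = 0.22). At 30 rpm the ACTB difference was 0.86 ± 0.05, the deeper fall being that of HEK293T (limma, adjusted p = 2e-12). VCL had the largest difference there, -1.19 ± 0.03, followed by TPM2 at -1.09 ± 0.05 (limma, adjusted p = 2.7e-18 and 1e-14). At 1 rpm the largest were TPM2 at -1.65 ± 0.05 and TPM1 at -1.33 ± 0.06 (limma, adjusted p = 1.6e-17 and 3.7e-14). ACTG1 in AggreWell rested on a small difference, 0.08 ± 0.03 (limma, adjusted p = 0.042), which was not called with a pseudocount of 0.1, without the filter, under median-ratio scaling, with voom or in the fit of only the groups compared, nor in 8 of the 12 fits that each left out 1 library of the formats compared.

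Other genes of the pathway were read from lists chosen with earlier results of these data known, counted as higher and lower among tested genes, and named by the size of their change at 30 rpm. Counts and medians follow the order AggreWell, 1 rpm and 30 rpm against 2D. Of all genes tested in PANC-1, 45.9%, 52.3% and 53.6% were higher and 24.1%, 33.9% and 32.2% lower. In HEK293T 48.6%, 53.1% and 49.6% were higher and 26.8%, 31.7% and 35.5% lower. Under median-ratio scaling the PANC-1 shares were 28.9%, 39.9% and 40.9% higher and 43.0%, 45.6% and 45.1% lower, and those of HEK293T 32.2%, 38.4% and 39.5% higher and 44.6%, 46.3% and 45.4% lower. A list's count near these shares is no result about the list.
Among 6 SRF partner genes, 5 were tested in each line. In PANC-1, 2, 1 and 1 were higher and 2, 2 and 3 lower in AggreWell, at 1 rpm and at 30 rpm; in HEK293T 3, 4 and 3 were higher and 1 was lower in each. Under median-ratio scaling 1 was higher in each PANC-1 format and 3, 4 and 4 lower, and in HEK293T 2, 3 and 2 were higher and 1 lower in each. MRTFA, the monomer-sensing partner, fell in PANC-1 from 9.25 ± 0.15 FPKM in 2D to 5.62 ± 0.17 in AggreWell, 5.39 ± 0.23 at 1 rpm and 4.34 ± 0.07 at 30 rpm, with a change of -0.94 ± 0.04 at 30 rpm (limma, adjusted p = 2.4e-11). ELK4, a ternary complex factor, rose at 30 rpm by 0.64 ± 0.04 in PANC-1 and by 2.11 ± 0.07 in HEK293T, where it went from 1.64 ± 0.24 to 10.4 ± 0.4 FPKM (limma, adjusted p = 5.6e-09 and 1.1e-11). ELK1, of the same family, fell in HEK293T from 36.2 ± 0.8 to 22.3 ± 1.1 FPKM (limma, adjusted p = 4.7e-09).

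Of 16 other contractile and crosslinking genes known as MRTF-SRF targets, 13 were tested in each line. In PANC-1, 5, 6 and 6 were higher and 7, 5 and 7 lower than in 2D in AggreWell, at 1 rpm and at 30 rpm, with median changes of -0.15, -0.12 and -0.07; under median-ratio scaling 3, 1 and 2 were higher and 9, 7 and 8 lower. In HEK293T, 10, 9 and 6 were higher and 2, 1 and 4 lower, with medians of 0.33, 0.26 and 0.11, and under median-ratio scaling 7, 6 and 6 were higher and 2, 5 and 5 lower. ACTN1, an alpha-actinin that crosslinks filaments, fell at 30 rpm in both lines, by 0.55 ± 0.04 and by 0.91 ± 0.03 (limma, adjusted p = 9.6e-09 and 3.2e-11). TUFT1 rose in both, from 8.34 ± 0.57 to 12.5 ± 0.3 FPKM in PANC-1 and from 7.0 ± 0.16 to 17.6 ± 0.7 FPKM in HEK293T (limma, adjusted p = 1.1e-06 and 1.6e-10).

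The immediate early genes that SRF is known to drive with ternary complex factors were higher in PANC-1 in both DRCC formats. Of 8 genes, 6 were tested in each line. In PANC-1 all 6 were higher at 1 rpm and at 30 rpm, where 52.3% and 53.6% of all genes were, with median changes of 1.97 and 2.56; all 6 were also higher under median-ratio scaling and with voom. In AggreWell 4 were higher and 2 lower, and 3 and 2 under either alternative. FOS was at 0.224 ± 0.036 FPKM in PANC-1 2D, 4.14 ± 0.15 in AggreWell, 4.10 ± 0.12 at 1 rpm and 18.2 ± 1.1 at 30 rpm. These counts hold FOS, which in PANC-1 passed the filter only through the 3D formats. Its higher calls against 2D thus followed from the filter and add nothing to the counts. EGR1 was at 1.5 ± 0.16, 4.73 ± 0.27, 25.3 ± 1.1 and 22.9 ± 1.1 FPKM. Their changes at 30 rpm were 3.97 ± 0.05 and 3.25 ± 0.05 (limma, adjusted p = 3.9e-16 and 4.9e-15). In HEK293T 5, 4 and 3 of 6 were higher and 1, 2 and 2 lower, with medians of 0.17, 0.37 and 0.18. Under median-ratio scaling 2, 3 and 3 were higher and 2, 2 and 3 lower, with medians of -0.0034, 0.14 and 0.03, so the balance of higher over lower held at 1 rpm only. IER2 was at 21.7 ± 0.4 FPKM in 2D and 30.6 ± 0.7 at 30 rpm, and JUNB at 16.5 ± 0.7 and 13.2 ± 0.4 (limma, adjusted p = 5.3e-09 and 2.3e-06).

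Of the genes of monomer binding and filament turnover 14 were tested, and 10, 10 and 8 were lower and 3, 4 and 4 higher in PANC-1, and 9, 6 and 8 were lower and 3, 3 and 2 higher in HEK293T. Under median-ratio scaling 11, 10 and 11 were lower and 2, 2 and 3 higher in PANC-1, and 10, 10 and 11 lower and 2 higher in each HEK293T format. On the FPKM scale the 6 of 14 lower at 1 rpm in HEK293T stood beside 31.7% of all genes. In HEK293T, PFN1 (profilin, which hands monomers to growing ends) went from 720.0 ± 20.9 FPKM in 2D to 550.0 ± 9.8 in AggreWell, 338 ± 5 at 1 rpm and 313 ± 5 at 30 rpm. CFL1 (cofilin, which severs filaments) went from 777 ± 25 to 683 ± 10, 391 ± 11 and 348 ± 9 FPKM. Their changes at 30 rpm were -1.20 ± 0.02 and -1.16 ± 0.03 (limma, adjusted p = 1e-13 and 5.8e-13). In PANC-1 the genes named by the rule rose: GSN (gelsolin, which severs and caps filaments) from 43.4 ± 0.8 to 100 ± 1.7 FPKM and TWF1 (twinfilin, which binds monomers) from 34.5 ± 1.5 to 74.6 ± 3.4 FPKM at 30 rpm (limma, adjusted p = 7.8e-14 and 7e-12).

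Of the other nonmuscle myosin and tropomyosin genes 8 of 9 were tested. In PANC-1, 4, 5 and 3 were higher and 2, 3 and 4 lower; in HEK293T, 5, 4 and 3 were higher and 2, 3 and 3 lower. The balance moved with the scaling: under median-ratio scaling 4, 4 and 3 were higher and 4, 4 and 5 lower in PANC-1, and 4, 2 and 1 higher and 3, 4 and 3 lower in HEK293T. TPM3 fell in PANC-1 from 87.8 ± 1.3 FPKM to 33.1 ± 0.3 at 1 rpm and 38.2 ± 0.6 at 30 rpm, and MYL12A, another regulatory light chain, from 459 ± 6 to 248 ± 5 FPKM at 30 rpm (limma, adjusted p = 2.1e-14 and 7.9e-13). In HEK293T, MYL6, the essential light chain, fell from 428 ± 12 to 222 ± 17 FPKM, while PPP1R12A, a subunit of myosin phosphatase, rose from 6.24 ± 0.52 to 17.4 ± 0.5 FPKM (limma, adjusted p = 8.1e-10 and 4.7e-11).

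Of 15 further focal adhesion genes 14 were tested: 6, 3 and 5 were higher and 6, 7 and 6 lower in PANC-1, and 6, 6 and 5 higher and 2, 6 and 5 lower in HEK293T. Under median-ratio scaling 3, 2 and 1 were higher and 8, 10 and 9 lower in PANC-1, and of 13 tested in HEK293T 2, 4 and 3 were higher and 7, 7 and 9 lower. PXN (paxillin) was lower at 30 rpm in PANC-1, at 44.7 ± 0.8 against 72.4 ± 4.5 FPKM, as was TNS3 (tensin 3), at 5.88 ± 0.31 against 13.2 ± 0.2 FPKM (limma, adjusted p = 5.9e-10 and 6.9e-12). TES (testin) rose in HEK293T from 20.5 ± 2.3 to 45.7 ± 1.2 FPKM, and FERMT2 (kindlin-2) from 12.8 ± 1.2 to 26.4 ± 0.04 FPKM (limma, adjusted p = 5.6e-10 and 8.3e-10).
Of filament crosslinking genes, 5, 3 and 4 of 10 tested were higher and 4, 6 and 6 lower in PANC-1, and 4, 4 and 3 higher and 3, 6 and 6 lower in HEK293T. Under median-ratio scaling 3 were higher in each PANC-1 format and 5, 7 and 6 lower, and 3, 3 and 2 were higher and 7, 6 and 7 lower in HEK293T, so the AggreWell balance turned in both lines. FSCN1 (fascin, which bundles filaments) fell in HEK293T from 145 ± 3 to 72.8 ± 2.5 FPKM at 30 rpm, and CORO1C (a coronin) in PANC-1 from 66.7 ± 2.6 to 34.7 ± 0.9 FPKM (limma, adjusted p = 1.9e-11 and 2.8e-12). Of nucleation, capping and elongation genes, 5, 7 and 8 of 22 were higher and 9, 14 and 12 lower in PANC-1, and 9, 12 and 8 of 23 higher and 11, 11 and 10 lower in HEK293T. Under median-ratio scaling 3, 4 and 6 were higher and 15 lower in each PANC-1 format, and 5, 7 and 7 were higher and 15, 11 and 13 lower in HEK293T. DIAPH1, a formin, fell in PANC-1 from 34.8 ± 1.3 to 18.3 ± 0.2 FPKM and DIAPH2, a related formin, rose in HEK293T from 2.73 ± 0.06 to 7.90 ± 0.49 FPKM (limma, adjusted p = 1.1e-11 and 1.7e-11).

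ACTB is also used as a reference gene in quantitative PCR, so its span over the formats was set beside 14 other such genes and ACTG1. In PANC-1 the highest group mean of ACTB was 2.07 times its lowest, the third widest of the 16, just under TFRC (2.10). In HEK293T it was 3.35 times, the second widest after PGK1 (6.44). ACTG1 spanned 1.15 times in PANC-1 and 1.51 times in HEK293T. TBP spanned 1.26 times in PANC-1 and 1.11 times in HEK293T, and HPRT1 1.21 and 1.13 times. Of the 14 other reference genes, 4, 4 and 3 were called higher and 7, 9 and 9 lower than in 2D in PANC-1, and 5, 3 and 4 higher and 5, 9 and 8 lower in HEK293T. Under median-ratio scaling 2, 1 and 2 were higher and 10, 12 and 12 lower in PANC-1, and 4, 1 and 2 higher and 10, 12 and 10 lower in HEK293T, beside the shares of all genes given with the pathway lists.

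Genes with the pattern most like that of ACTB were sought among 10107 protein-coding genes tested in both lines, by Pearson r of log2(FPKM + 1) over the 24 libraries after removal of each line's mean. DNAAF5 (r = 0.995) and YWHAE (0.991) were among the 3 highest. DNAAF5 went from 43.4 FPKM in HEK293T 2D to 14.8 FPKM at 30 rpm, and in PANC-1 from 24 to 13.3 FPKM. YWHAE went from 748 to 332 FPKM in HEK293T and from 648 to 404 FPKM in PANC-1. For SRF they were FGFR1 (0.912), DRAP1 (0.911) and UBE2S (0.898). These values are a description: the libraries form 4 formats of 3 per line, and genes of one library share its depth and scaling.

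The promoters with a CArG box gave 1 more view, on a list chosen after the values were seen. The 288 genes of the table, other than members, with a box in a RefSeq window held 135 tested genes in PANC-1 and 149 in HEK293T. In PANC-1, 62, 67 and 69 were higher and 45, 43 and 49 lower in AggreWell, at 1 rpm and at 30 rpm, with median changes of 0.07, 0.09 and 0.08 beside 0.10, 0.15 and 0.17 for all genes. In HEK293T, 76, 85 and 73 were higher and 40, 49 and 61 lower, with medians of 0.14, 0.22 and 0.11 beside 0.12, 0.18 and 0.13. Of all genes tested in PANC-1, 45.9%, 52.3% and 53.6% were higher and 24.1%, 33.9% and 32.2% lower. The HEK293T shares were 48.6%, 53.1% and 49.6% higher and 26.8%, 31.7% and 35.5% lower. Counts near these shares are no result about the list, and they are given on the FPKM scale only. Of the 3 members whose promoters are shown above, SRF changed by -0.57, ACTG1 by -0.13 and FLNA by -0.33 in PANC-1 at 1 rpm. TPM1, VCL, TAGLN2 and TPM2, with no box in the windows matched, changed by -0.97, -0.91, -0.71 and -0.42.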

How the data were processed

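RNA of 24 libraries was sequenced. The values are FPKM, deposited by the authors for 26450 genes in a single table. TRIzol extraction of total RNA and a VAHTS library kit are recorded, per the labels' protocols. Whether the counting used strand is not given there. The submitters' processing notes name fastp, HISAT2, HTSeq, R 3.2.0 and the mouse build mm10, without roles. The table holds human symbols, so no coordinates were taken from its build; promoters come from RefSeq GRCh38.p14, and NEFM, a HEK293T marker, was not analysed here.

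From these values, whole fragments were recovered for 26449 genes (tolerance 0.01). Tests on log2(FPKM + 1), a pseudocount of 1, were run in limma 3.58.1 (R 4.3.3), its variance trend switched on, for genes with at least 1 FPKM in at least 3 libraries. Each line was fitted over its 12 libraries, and line differences over all 24. P-values were adjusted by Benjamini-Hochberg over all tested genes (threshold 0.05). The procedure was tested on simulated data. Tables and figures used Python 3.11.15, pandas 2.3.3, scipy 1.17.1 and matplotlib 3.10.9.

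The alternatives tried were median-ratio scaling, a smaller pseudocount (0.1), a mean of at least 5 FPKM, no filter, scaling without the 13 mitochondrially encoded genes, voom on recovered fragments with TMM factors, only the groups compared, a replicate block, and each library left out. Members and lists were chosen with earlier results of these data known. Besides the members, 2 called genes per list and line with the largest change at 30 rpm and a mean of at least 5 FPKM in the higher format were to be named, and the text takes a part of them, with reference genes by their span. Some genes and 1 list that these rules name are not reported here.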

Additional observations from a re-analysis of the deposited data

Results flagged for a closer look

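By the interaction test over 24 libraries, 57.0%, 75.8% and 79.5% of all tested genes were called in AggreWell, at 1 rpm and at 30 rpm. Among the members, the change from 2D differed between the lines for 26 of 27 combinations of member and format. This tally holds 3 of MYL9, and ACTG1 in AggreWell, which was not called with a pseudocount of 0.1, without the filter, under median-ratio scaling, with voom or in the fit of only the groups compared. The values are the PANC-1 change less the HEK293T change in log2(FPKM + 1), n = 3 libraries per group.
In AggreWell the difference was 0.0786 for ACTG1, -0.35 for MYL9, -0.82 for TAGLN2, -0.53 for TPM1, -1.21 for TPM2, -0.37 for VCL, -0.69 for FLNA and -0.31 for SRF. TPM2 and TAGLN2 had the widest gap there, with TPM2 lower in PANC-1 and higher in HEK293T than in 2D.
At 1 rpm it was 0.48 for ACTB, 0.46 for ACTG1, -0.94 for MYL9, -0.77 for TAGLN2, -1.33 for TPM1, -1.65 for TPM2, -0.97 for VCL, -0.54 for FLNA and -0.51 for SRF. Only the actins had a difference above 0, since they fell further in HEK293T.
At 30 rpm it was 0.86 for ACTB, 0.18 for ACTG1, -0.44 for MYL9, -0.26 for TAGLN2, -0.79 for TPM1, -1.09 for TPM2, -1.19 for VCL, -0.18 for FLNA and -0.24 for SRF. The MYL9 differences are those of a gene at or near 0 in HEK293T, so they restate the PANC-1 change at a pseudocount of 1, and none of the 3 was called with voom on recovered fragments.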

How the results depend on the processing

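The falls of ACTB and ACTG1 from 2D in both lines, and those of MYL9, TAGLN2, TPM1, VCL and SRF in PANC-1, kept direction and call under each alternative and with each library left out, as did the rise of TPM2 in HEK293T. Median-ratio scaling left 116 of 138 member results on the same side with the same sign, voom 117, the rescaling without mitochondrially encoded genes 135, a pseudocount of 0.1 137, and fits of only the groups compared 136.
Signs turned in HEK293T. Under median-ratio scaling TAGLN2 changed by -0.0999 in AggreWell and -0.2364 at 1 rpm, VCL by -0.1524, -0.2324 and -0.0569 in AggreWell, at 1 rpm and at 30 rpm, FLNA by -0.0844 at 1 rpm and -0.1824 at 30 rpm, and TPM1 by -0.1235 at 30 rpm. With voom TAGLN2 changed by -0.0026 and -0.1223, VCL by -0.059 and -0.1243, TPM1 by -0.0684 and FLNA by -0.1152 at 30 rpm. The cause was not tested.
With a mean of at least 5 FPKM fewer genes were tested, and calls from 2D were 6569 and 6519 genes in PANC-1 and 7049 and 7104 in HEK293T at 1 rpm and 30 rpm. From AggreWell they were 6294 and 6381 in PANC-1 and 6563 in HEK293T at 30 rpm. Line differences gave 4919, 6463 and 6683, and the lines in 2D 7456.
Leaving out 1 library gave 7585 to 7847, 9696 to 9850 and 9624 to 9824 called genes in PANC-1 and 8889 to 9348, 10359 to 10591 and 10382 to 10588 in HEK293T for AggreWell, 1 rpm and 30 rpm from 2D. Called members then numbered 8 to 9, 9 and 8 in PANC-1 and 6 to 8, 5 to 7 and 5 in HEK293T. Calls on small changes were lost without single libraries. In HEK293T these were VCL in AggreWell (0.0631 to 0.0703, without 2D replicate 1 or 2 or AggreWell replicate 1 or 3) and TAGLN2 at 1 rpm (0.043 to 0.0638, without 2D replicate 1 or 2 or 1 rpm replicate 3). From AggreWell in HEK293T they were SRF and TAGLN2 at 1 rpm (0.0783 to 0.0822 and -0.0643 to -0.0477), and TPM1, TPM2 and VCL at 30 rpm (0.1296 to 0.1366, 0.0904 to 0.0981 and 0.0672). AggreWell replicate 3 was among the libraries left out for SRF, TAGLN2, TPM1 and TPM2, and replicate 2 alone for VCL. In PANC-1 they were ACTG1 between the speeds (-0.0691 to -0.067, without 30 rpm replicate 1 or 1 rpm replicate 1 or 3) and FLNA at 30 rpm from AggreWell (-0.0763 to -0.0756, without 30 rpm replicate 1 or 3). Calls were gained for FLNA in PANC-1 AggreWell (-0.0861, without 2D replicate 3), the ACTB line difference in AggreWell (0.1351, without PANC-1 2D replicate 1) and, in HEK293T, TPM1 in AggreWell (-0.1421, without AggreWell replicate 2), SRF at 1 rpm (-0.0807, without 1 rpm replicate 3) and VCL at 1 rpm (0.0746, without 2D replicate 3). The SRF change between the speeds in HEK293T ran up to 0.0307 and turned to -0.0032, -0.0028, -0.003 and -0.0073, without 1 rpm replicate 1 or 2 or 30 rpm replicate 2 or 3. TPM2 in PANC-1 at 30 rpm ran from -0.0508 to 0.0204, the latter without 2D replicate 1. The falls of the ACTB to ACTG1 ratio, left-out libraries added after the values were seen, kept their direction. They were bound to, since no format overlapped with 2D in this ratio.
With the replicate number as a block, 138 of 138 member results had the same sign and side. The numbers were not taken to pair the libraries, since not every correlation between the deviations of same-numbered libraries was above 0.1: they ran from -0.092 to 0.106 in PANC-1 and from -0.097 to 0.43 in HEK293T. Libraries with different numbers gave -0.169 to 0.181 in PANC-1 and -0.32 to 0.226 in HEK293T. The medians for same and different numbers were -0.03 and 0.016 in PANC-1, and 0.073 and -0.036 in HEK293T. These values do not settle whether the libraries were paired.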
